A study of Arabidopsis thaliana with 12 samples.

Results

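The genes described here are those whose expression was highest in seedlings of the spch mutant among 4 genotypes of Arabidopsis thaliana. A probe set, the group of array probes that reads 1 transcript, belonged to them when its mean log2 value over the 3 spch arrays lay at least 1.25 (2.38-fold) above the mean of each of the other 3 genotypes. That gave 192 of 22746 probe sets, and 6 named ones, 5 of them glutaredoxin genes and the other AT2G32150, were left out by the definition, so 186 remained (0.818%). The members were chosen by their mean values in all 4 genotypes, so the height of spch over the other genotypes is a description and carries no test. Of the 186, 85 are paired with 1 gene (84 different genes), 3 with several genes and 98 with none in the platform annotation used here. Members without a named gene enter the counts below but are not described singly, except the one with the largest margin.

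The 12 arrays measured whole seedlings of the Col-0 ecotype at 5 days after germination, with 3 biological replicates, numbered 2, 3 and 4, in each genotype. WT was unmutated Col-0. The spch mutant lacks the function of SPEECHLESS, and the labels describe its epidermis as pavement cells alone. The scrm-D mutant carries a dominant allele of SCREAM, with an epidermis of guard cells per the labels, and scrm-D;mute (the double mutant) combines that allele with loss of MUTE, with an epidermis of almost nothing but meristemoids. The labels conflict for the scrm-D samples, which also carry a description that reads as the double mutant's. Groups here follow the titles and genotype fields. No treatment was applied, and the labels name no allele for spch or mute.

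SPEECHLESS is the basic helix-loop-helix factor that starts the stomatal lineage. It works with SCREAM as its partner, and MUTE and FAMA act later in the same lineage. Without SPEECHLESS no meristemoids and no guard cells form, so a leaf has no stomatal pores through which carbon dioxide can enter and water vapour can leave. Plants short of carbon, in the dark or without sugar, are known to turn on genes for the breakdown of branched-chain amino acids and for recycling of cell contents. Plants exposed to reactive or foreign compounds are known to turn on glycosyltransferases, reductases and transporters of the MATE family, which modify such compounds and move them out of the cytosol.

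All values are the deposited log2 values. SPCH (AT5G53210) read 6.15, 6.71 and 6.22 on the WT arrays, 5.41, 5.11 and 5.41 on the spch arrays, 7.42, 8.17 and 7.13 on the scrm-D arrays and 10.89, 10.85 and 10.56 on the double mutant arrays, so the spch arrays were the lowest and did not overlap those of WT. Where the spch lesion lies relative to that probe set is not stated. Array medians lay between 6.39 and 6.53, and arrays of 1 genotype correlated over all probe sets, which are not independent replicates, with r from 0.986 to 0.995. The 3 spch arrays were not alike in guard cell markers. GC1 (AT1G22690), abundant in guard cells, read 9.70, 9.64 and 4.31 on spch replicates 2, 3 and 4 against 10.74, 10.38 and 10.86 in WT, and BLUS1 (AT4G14480), a guard cell kinase, read 6.10, 5.83 and 4.45 against 6.95, 6.42 and 6.62. Spch replicates 2 and 3 thus read both genes above the background level defined below, and replicate 4 read both under it. The double mutant arrays read GC1 at 8.98, 8.21 and 6.84 and BLUS1 at 6.21, 5.85 and 6.16. FAMA (AT3G24140), another guard cell marker, read 6.36, 6.12 and 5.64 on the spch arrays, above background on each. Whether the spch seedlings departed from the labelled epidermis of pavement cells alone was not tested. A 25S rRNA control probe set, which measures RNA outside the messenger pool, stood out on several arrays: it read 8.66, 9.19 and 11.04 on the spch arrays against 6.56 to 7.50 on the WT arrays. It was as high on 2 double mutant arrays, at 10.84 and 11.06, and between 8.98 and 10.07 on the scrm-D arrays. Bacterial control transcripts that had been added differed by genotype, so genotype and added control cannot be told apart. Values under 4.99, the 95th percentile of bacterial controls on arrays that lacked their transcript, are called background here, and a fold against a group under it is written as "at least". In whole seedlings, more cells of a type and more RNA per cell cannot be told apart.

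The 186 probe sets stood above the other genotypes by a median of 1.56 on the log2 scale (2.95-fold), and 43 of them by at least 2. Every spch array lay above all 9 other arrays for 183 of the 186, as it did for 8.13% of all probe sets, a count that follows from how they were chosen. The 3 exceptions were AT1G49200 and 2 probe sets without a named gene. Mean levels in spch ran from 5.78 to 13.09, and none was under the background level. The genotype nearest to spch was scrm-D for 77 probe sets, WT for 70 and the double mutant for 39. For 20 probe sets all 3 other genotypes read under the background level.

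The 3 largest margins described here belonged to probe sets that were near or under background outside spch. The largest of all, 5.40 (42.2-fold), was that of a probe set paired with no gene here, which had means of 5.22 in WT, 10.89 in spch, 5.49 in scrm-D and 4.59 in the double mutant. AT1G19530 read 4.16, 4.30 and 4.35 on the WT arrays, 9.34, 9.11 and 9.54 on the spch arrays, 5.56, 5.50 and 4.63 on the scrm-D arrays and 5.09, 6.01 and 4.84 on the double mutant arrays. Its spch values lay together and far above the rest, 16.1-fold over the double mutant, the next highest genotype. AT1G19540, the next gene along chromosome 1, named after its values were seen, which encodes a protein related to isoflavone reductases, was also among the 186, at 5.90 ± 0.35 (SD, n = 3) in spch and under background in the other genotypes. This was the only pair of named genes among the 186 with at most 4 protein-coding genes between them in the TAIR10.1 gene order. AT1G09500, whose product is related to alcohol dehydrogenases of the cinnamyl type, read 3.94, 4.05 and 3.91 on the WT arrays, 7.25, 7.29 and 8.35 on the spch arrays, 3.83, 4.01 and 3.76 on the scrm-D arrays and 3.88, 3.87 and 3.71 on the double mutant arrays. It was at background in all 3 other genotypes and at least 6.23-fold higher in spch.

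**Figure D1:**
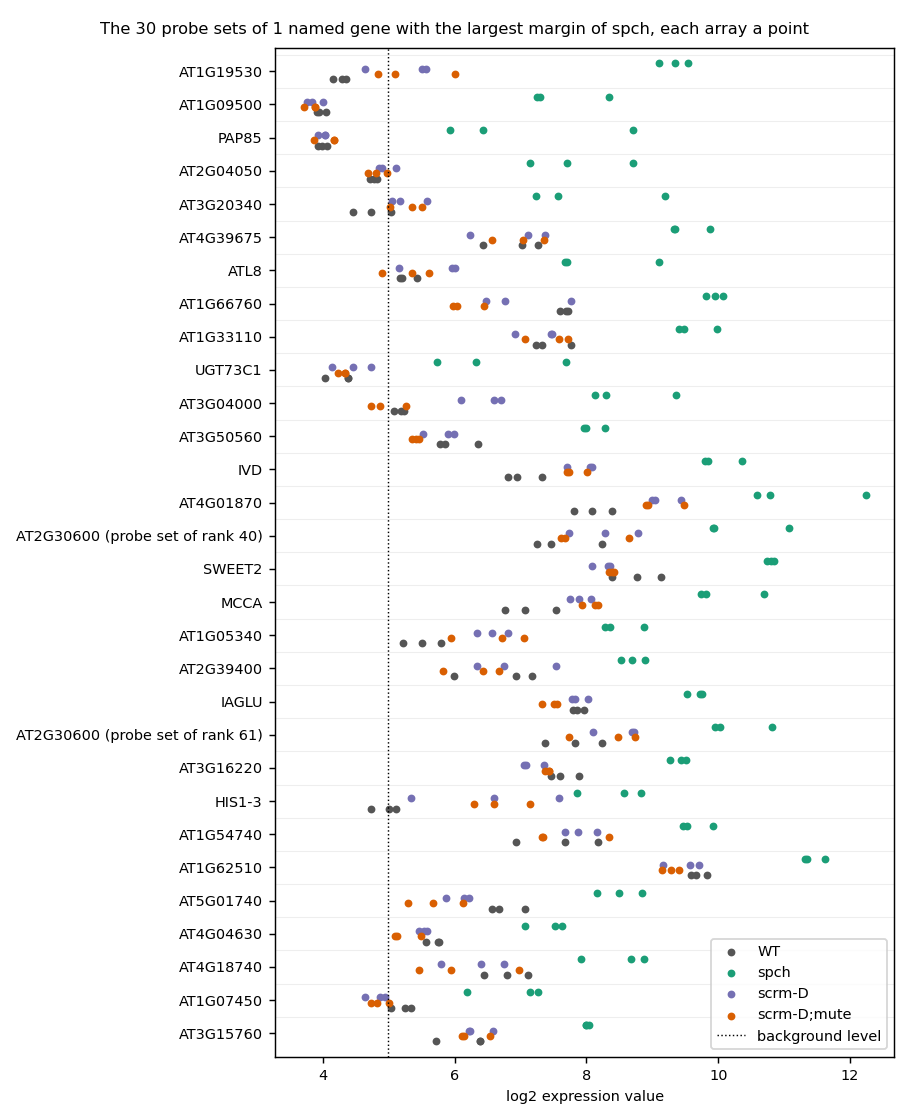
Log2 expression values (horizontal axis) of the 30 probe sets with 1 named gene and the largest margin of spch over the next highest genotype, largest at the top, where each point is 1 of 12 arrays and the colour is the genotype. The spch points lie to the right of all others in each of the 30 lines, and for AT1G09500, PAP85, AT2G04050 and UGT73C1 the means of the other 3 genotypes lie under the background level of 4.99 (dotted line).

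IVD and MCCA, both of leucine breakdown and grouped here after their values were seen, were among the 30 largest margins, while MCCB, the other subunit of MCCA's enzyme, missed the margin at 0.55. IVD (AT3G45300) encodes isovaleryl-CoA dehydrogenase, a mitochondrial enzyme of leucine breakdown. It read 7.33, 6.81 and 6.94 on the WT arrays, 9.84, 9.80 and 10.36 on the spch arrays, 7.71, 8.06 and 8.09 on the scrm-D arrays and 7.70, 7.74 and 8.02 on the double mutant arrays. The WT mean was 7.03 ± 0.27 (SD, n = 3), the spch mean lay 2.97 above it, and spch was 4.14-fold over scrm-D, the next highest genotype. MCCA (AT1G03090), the biotin-carrying subunit of methylcrotonyl-CoA carboxylase, which acts next in leucine breakdown, read 7.54, 7.06 and 6.76 on the WT arrays, 9.81, 9.74 and 10.69 on the spch arrays, 8.07, 7.75 and 7.89 on the scrm-D arrays and 8.12, 7.94 and 8.18 on the double mutant arrays. Its spch values did not overlap the others, with a mean difference of 2.96 from WT. ETFQO (AT2G43400), named here after its values were seen, passes electrons from IVD and related dehydrogenases to the respiratory chain, and stood at 9.04 ± 0.55 in spch against 7.20 ± 0.24 in WT.

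MCCA and IVD belong to a list of 31 genes of sugar starvation and darkness, of which 5 had a probe set with 1 named gene. The other named member of the 186 on that list was AKINBETA1 (AT5G21170), a subunit of the energy-sensing kinase SnRK1. It was 2.51-fold over its next highest genotype, with 9.39, 9.29 and 10.21 on the spch arrays and 8.22, 7.77 and 8.50 on the WT arrays. The remaining 2 were not among the 186 and could be tested between spch and WT, with limma over all probe sets (19.5% called at an adjusted p under 0.05), and both rose. PPDK (AT4G15530), pyruvate orthophosphate dikinase, read 7.69, 7.21 and 7.23 on the WT arrays, 9.61, 9.60 and 10.37 on the spch arrays, 8.98, 8.57 and 9.31 on the scrm-D arrays and 7.65, 8.06 and 8.49 on the double mutant arrays. It rose by 2.48 ± 0.26 (SE, adjusted p = 6.72e-05), and scrm-D, at a mean of 8.95, lay too close to spch for the margin. ATG8E (AT2G45170), an autophagy protein, rose by 1.01 ± 0.15 (adjusted p = 5.93e-04). The list was chosen with earlier results of these data known, so its direction is not independent evidence.

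Other carbon and nitrogen genes were selected as well. SWEET2 (AT3G14770), a sugar transporter of the vacuole membrane, read 10.73, 10.81 and 10.85 on the spch arrays and at most 9.13 elsewhere, a margin of 2.03 over WT. ICL (AT3G21720), isocitrate lyase of the glyoxylate cycle, read 6.49, 6.62 and 8.19 in spch against a mean of 5.11 in WT, with replicate 4 the highest by 1.57. AAH (AT4G20070), allantoate amidohydrolase, which frees nitrogen from ureides, stood at 9.40 ± 0.16 in spch, with a margin of 1.40. ICL and AAH lay outside the 30 largest margins.

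**Figure D2:**
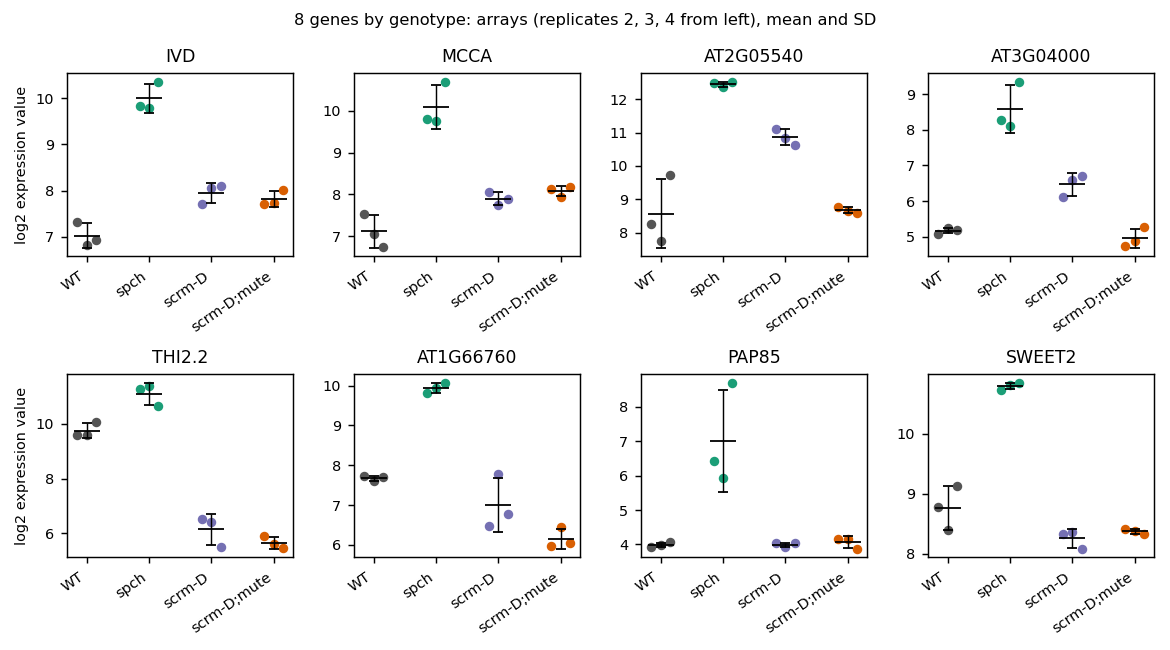
Log2 expression values (vertical axis, not starting at 0) of 8 genes in the 4 genotypes, with points for replicates 2, 3 and 4 from left to right, a bar for the mean and whiskers for the SD of 3 arrays. The genes show the different orders below spch: scrm-D and the double mutant both above WT for IVD, scrm-D called above both WT and the double mutant for AT2G05540 and AT3G04000, and both far under WT for THI2.2.

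Genes whose products handle reactive or foreign compounds were among the remaining names, a grouping made after the values were seen and given no test. 3 genes of MATE transporters were among the 30 largest margins. AT2G04050 read 7.70, 7.14 and 8.71 in spch with means under background in the other genotypes, so that spch was at least 7.26-fold higher. AT1G66760 had means of 9.95 in spch, 7.67 in WT and 6.16 in the double mutant. AT1G33110 stood at 9.62 ± 0.31 in spch and between 7.28 and 7.46 in the others. 2 of the 3 thus had a clear WT level, whereas AT2G04050 was under background in WT.

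Among glycosyltransferases, which attach sugars to small molecules, UGT73C1 (AT2G36750) read 6.33, 5.73 and 7.69 in spch and was under background elsewhere, so that spch was at least 3.01-fold higher. IAGLU (AT4G15550), which glucosylates the auxin indole-3-acetic acid, read 9.72, 9.53 and 9.76 in spch and 7.96, 7.79 and 7.85 in WT, a margin of 1.80. AT4G15260, a further glycosyltransferase gene, had a margin of 1.29, and UGT73B4 (AT2G15490) one of 1.47, with spch values of 7.87, 7.34 and 8.53. Probe sets of related glycosyltransferases may share signal. AT3G04000, an aldehyde reductase that uses NADPH, read 5.08, 5.23 and 5.18 on the WT arrays, 8.29, 8.12 and 9.36 on the spch arrays, 6.10, 6.60 and 6.70 on the scrm-D arrays and 4.73, 4.86 and 5.26 on the double mutant arrays. It was 4.36-fold over scrm-D, which in turn lay above WT without overlap. AT1G07450, related to tropinone reductases, differed from most genes in that spch replicate 4 was its lowest spch array, at 6.19 against 7.26 and 7.15.

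Genes of other roles completed the largest margins. PAP85 (AT3G22640), a vicilin-like protein known from seeds, read 3.93, 3.98 and 4.06 on the WT arrays, 6.43, 5.92 and 8.71 on the spch arrays, 4.03, 3.92 and 4.03 on the scrm-D arrays and 4.17, 4.17 and 3.87 on the double mutant arrays. The other genotypes were all at background and spch was at least 4.09-fold higher, but its spch arrays spread over 2.79 log2 units. HIS1-3 (AT2G18050), a linker histone induced by drought, read 8.83, 7.85 and 8.57 in spch, 6.59, 7.59 and 5.34 in scrm-D and 5.11, 5.01 and 4.73 in WT, so the gap between the lowest spch and the highest scrm-D array, the highest of the other 9, was 0.26. ATL8 (AT1G76410), a RING-type ubiquitin ligase, had a margin of 2.46, and AT2G30600, a BTB/POZ domain protein read by 2 probe sets that were both selected, had margins of 2.05 and 1.76. AT4G01870 had the highest spch value of the 30, 12.25 on replicate 4. Margins of AT3G20340, AT4G39675, AT3G50560, AT1G05340, AT2G39400, AT3G16220, AT1G54740, AT1G62510, AT5G01740, AT4G04630, AT4G18740 and AT3G15760 lay between 1.66 and 2.71.

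The level of these genes was not equal on the 3 spch arrays. The median over the 186 probe sets was 9.14, 9.04 and 9.52 on spch replicates 2, 3 and 4, while the median over all probe sets was 6.46, 6.39 and 6.41. Replicate 4 was the highest spch array for 154 of the 186, against 36.8% of all probe sets. Replicate 3 was the lowest for 114, and its share over all probe sets was not computed. The 186 were chosen by the mean of these same 3 arrays, which favours probe sets lifted by 1 high array. The counts in this paragraph are therefore a description. The median excess of replicate 4 over the mean of the other 2 arrays was 0.53, and it was over 1 for 33 of the 186 (0.730% of all probe sets). Replicate 4 was also the spch array with the highest 25S rRNA level and with the lowest guard cell markers, GC1 and BLUS1 under background among them, and their part in the difference was not tested. Double mutant replicates 2 and 3, with rRNA levels of 10.84 and 11.06, had medians of 7.01 and 7.03 over the 186, against 7.04 on replicate 4 with an rRNA level of 6.96. The definition kept the double mutant means of the 186 low, and the part of the rRNA level was not tested there either. Without spch replicate 4, 147 probe sets met the definition, 134 of them among the 186.

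WT arrays also differed, and WT replicate 3 had the lowest median over the 186, at 6.91 against 7.44 and 7.16. It was the lowest WT array for 115 of the 186 and for 33.9% of all probe sets. The median SD of 3 arrays was 0.27 in WT and 0.33 in spch over the 186, against 0.14 and 0.15 over all probe sets, and it was also larger in scrm-D (0.25 against 0.16) and the double mutant (0.23 against 0.15). The median SD over the 186 was thus the larger in all 4 genotypes. The probe sets compared were not matched for level, and the part of the choice by genotype means was not tested.

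**Figure D3:**
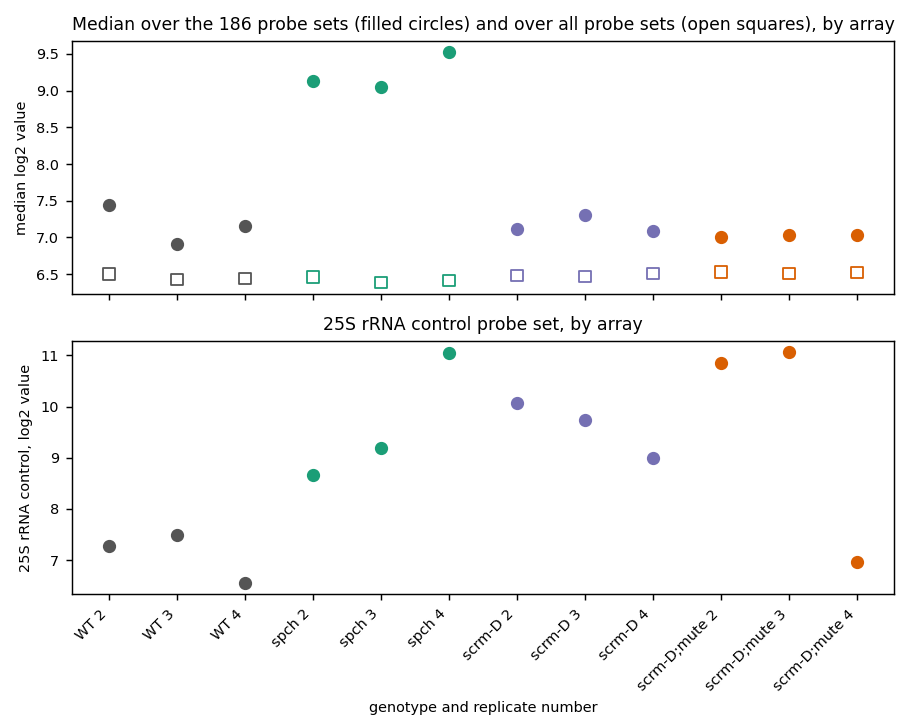
Upper panel: median log2 value on each of the 12 arrays over the 186 probe sets (filled circles) and over all probe sets (open squares). Lower panel: log2 value of the 25S rRNA control on the same arrays. The 3 spch arrays sit at 9.04 to 9.52 in the upper panel and the other 9 at 6.91 to 7.44, a gap that follows from how the 186 were chosen. In the lower panel double mutant replicates 2 and 3 are as high as spch replicate 4.

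**Figure D4:**
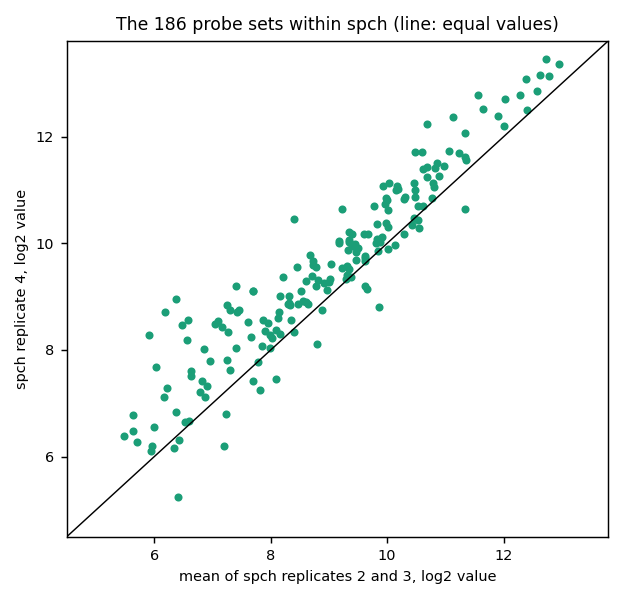
Log2 value on spch replicate 4 (vertical axis) against the mean of spch replicates 2 and 3 (horizontal axis) for the 186 probe sets, with a line of equal values. Most points lie above the line, with a median excess of 0.53.

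The means of WT, scrm-D and the double mutant entered the choice of the genes only through an upper limit, at least 1.25 under spch. Differences among these genotypes could be tested within that limit. Probe sets that rose close to spch in 1 of them, such as PPDK in scrm-D, were left out, and the shares of all probe sets carry no such limit. For 20 of the 186 all 3 read under background, so little difference could be measured among them. Over the 3 comparisons 130 of the 186 had no call and 56 had at least 1. The share of all probe sets with at least 1 call was not computed, so these counts are a description only. Between scrm-D and WT 32 of the 186 were called (17.2%, against 14.2% of all probe sets), 20 higher and 12 lower (6.76% and 7.39% of all). Between the double mutant and WT 39 were called (21.0%, against 27.7%), 18 higher and 21 lower (14.1% and 13.6% of all). Between the double mutant and scrm-D 17 were called (9.14%, against 13.4%), 4 higher and 13 lower (7.45% and 5.94% of all), and 26 were called with the replicate number as a block, against 17.4% of all. With that block 47 were called between scrm-D and WT (25.3%, against 17.9% of all). Between the double mutant and WT 57 were then called (30.6%, against 31.7% of all). Whether the shares differ from those of all probe sets was not tested. The median differences over the 186 were 0.01, −0.04 and −0.11, beside −0.01, −0.01 and 0.00 over all. The 3 comparisons share arrays, so their counts are not independent. Leaving out the WT array of replicate 4 lowered the count for scrm-D to 19 (10.5% of all probe sets were then called), and leaving out the scrm-D array of that number lowered it to 21 (9.35% of all). Leaving out double mutant replicate 2 lowered the count against scrm-D to 8 (8.65% of all). Without replicate 4 of every genotype that count was 33 (17.7%, against 13.9% of all), so the share of the 186 lay above that of all probe sets there and below it in the fit of 12 arrays. With the 25S rRNA level as a covariate, 27 of the 186 were called between the double mutant and WT, 6 higher and 21 lower. Of all probe sets 16.4% were then called in either direction, and their shares by direction were not computed.

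**Figure D5:**
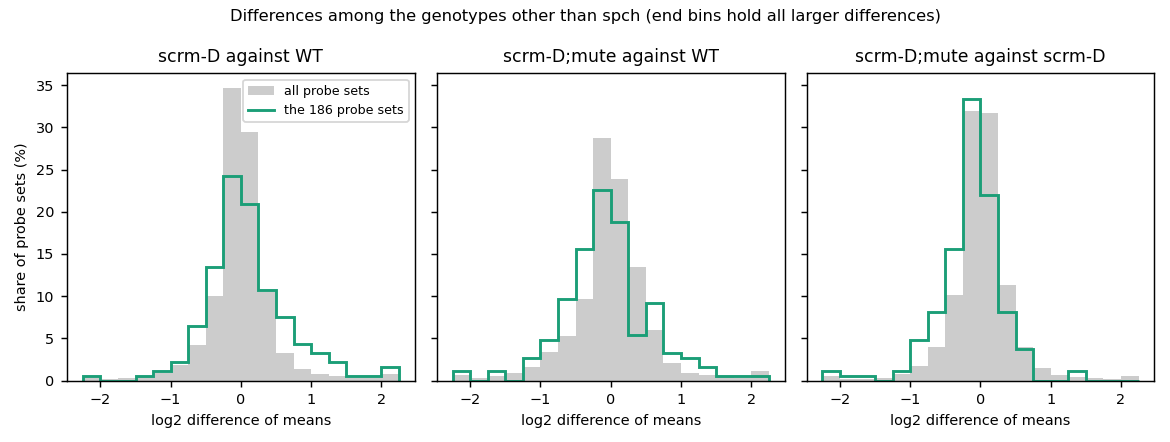
Distribution of log2 differences of means in bins of 0.25 for the 3 comparisons among WT, scrm-D and the double mutant, as a share of all 22746 probe sets (grey) and of the 186 (green line). In all 3 panels the 186 centre near 0, with medians of 0.01, −0.04 and −0.11.

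Several genes highest in spch also rose in scrm-D or the double mutant against WT. IVD rose by 0.92 ± 0.18 in scrm-D (SE, adjusted p = 0.00469) and by 0.79 ± 0.18 in the double mutant (adjusted p = 0.00642), and in both its 3 arrays lay above the 3 WT arrays. MCCA rose by 0.96 ± 0.24 in the double mutant (adjusted p = 0.0105) and by 0.78 in scrm-D (adjusted p = 0.0483). AT2G05540, a glycine-rich protein gene, read 12.47, 12.35 and 12.50 in spch, 11.11, 10.83 and 10.63 in scrm-D, 8.77, 8.67 and 8.59 in the double mutant and 8.25, 7.76 and 9.73 in WT. It rose by 2.27 ± 0.36 in scrm-D against WT (adjusted p = 0.00113) and was lower by 2.18 in the double mutant than in scrm-D (log2 change −2.18, adjusted p = 0.00141). AT3G04000 also differed in both comparisons with scrm-D, rising by 1.31 ± 0.27 in scrm-D (adjusted p = 0.00686) against WT and falling by at least 1.48 from scrm-D to the double mutant (adjusted p = 0.00264), where its mean was under background. AT4G15260 rose by 1.22 in scrm-D (adjusted p = 0.00112) and 0.91 in the double mutant (adjusted p = 0.00393), or by at least 1.15 and 0.83 over the background level. AT1G68620, a carboxylesterase-like gene, rose by 0.76 in scrm-D (adjusted p = 0.00498) and 0.47 in the double mutant (adjusted p = 0.0364). Both MCCA calls and that of AT1G68620 in the double mutant ended in at least 1 other setting, given below.

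Others fell in the double mutant against WT, and THI2.2 also in scrm-D. THI2.2 (AT5G36910), a thionin, one of the small antimicrobial proteins, read 9.58, 9.59 and 10.07 on the WT arrays, 11.27, 11.40 and 10.64 on the spch arrays, 6.52, 6.42 and 5.49 on the scrm-D arrays and 5.90, 5.62 and 5.45 on the double mutant arrays. It fell by 3.60 in scrm-D (adjusted p = 4.25e-06) and by 4.09 in the double mutant (adjusted p = 4.59e-07), the largest falls among the 186, while spch stood 1.36 above WT. AT1G66760, one of the MATE genes, fell by 1.52 in the double mutant against WT (adjusted p = 8.73e-04). AAH fell by 0.91 in the double mutant (adjusted p = 0.00153), AT2G38800, a calmodulin-binding protein gene, by 0.96 (adjusted p = 0.00427) and AT1G57770 by 0.61 (adjusted p = 0.00581). AT5G01740 fell by 1.07 (adjusted p = 0.00340), and CML30 (AT2G15680), a calmodulin-like protein, by 0.61 (adjusted p = 0.0107), calls that ended in other settings given below.

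Further calls ended when 1 array was left out, named here by genotype and replicate number, or in another setting, with the adjusted p given in parentheses. In scrm-D against WT, AT1G19530 rose by 0.96 (adjusted p = 0.0419), AT1G05340 by 1.07 (0.0153), HIS1-3 by 1.56 (0.0339), AT1G14890 by 0.77 (0.0392) and AT5G16980 by 1.37 (0.0381), while SWEET2 fell by 0.51 (0.0476), AT3G16220 by 0.49 (0.0239) and AT4G37560 by 0.76 (0.0242). Over the background level AT1G19530 and HIS1-3 rose by at least 0.24 and 1.52. The MCCA call ended when 1 of WT arrays 3 and 4, spch array 2, scrm-D arrays 2, 3 and 4 and double mutant arrays 2, 3 and 4 was left out (0.0530 to 0.180), with the 25S rRNA level as a covariate (0.282) and without replicate 4 of every genotype (0.0637), and its call in the double mutant with the 25S rRNA level as a covariate (0.118). The AT1G19530 call ended when 1 of WT arrays 2, 3 and 4, spch arrays 2 and 3 and scrm-D arrays 2 and 3 was left out (0.0522 to 0.140) and with the 25S rRNA level as a covariate (0.389). That of AT1G05340 ended when 1 of WT array 3 and scrm-D array 3 was left out (0.0560 to 0.0628) and with the 25S rRNA level as a covariate (0.183), that of HIS1-3 when 1 of WT arrays 2, 3 and 4 and scrm-D arrays 2 and 3 was left out (0.0705 to 0.106), in a fit of those genotypes alone (0.0608), with trended robust moderation (0.0645) and with the 25S rRNA level as a covariate (0.255), and that of AT1G14890 when 1 of WT arrays 2, 3 and 4, spch array 2 and scrm-D arrays 2, 3 and 4 was left out (0.0535 to 0.132) and with the 25S rRNA level as a covariate (0.0715). The AT5G16980 call ended when 1 of WT arrays 2, 3 and 4 and scrm-D arrays 2, 3 and 4 was left out (0.0593 to 0.122), with trended robust moderation (0.0604) and with the 25S rRNA level as a covariate (0.102), and the SWEET2 call when 1 of WT arrays 2 and 4, spch arrays 2, 3 and 4, scrm-D arrays 2, 3 and 4 and double mutant arrays 2, 3 and 4 was left out (0.0528 to 0.174), in a fit of those genotypes alone (0.122), with the 25S rRNA level as a covariate (0.143) and without replicate 4 of every genotype (0.424). AT3G16220 was lost when 1 of WT arrays 2 and 4 and scrm-D arrays 2 and 4 was left out (0.0531 to 0.0962), in a fit of those genotypes alone (0.0670), with the 25S rRNA level as a covariate (0.0760) and without replicate 4 of every genotype (0.223), and AT4G37560 when 1 of WT arrays 2 and 4 and scrm-D arrays 2 and 4 was left out (0.0709 to 0.102), in a fit of those genotypes alone (0.0682), with the 25S rRNA level as a covariate (0.159) and without replicate 4 of every genotype (0.180).

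In the double mutant against WT, AT1G19530 rose by 1.05 (adjusted p = 0.0166, at least 0.33 over background), AT4G01870 by 1.02 (0.0468), AT1G05340 by 1.07 (0.00870) and HIS1-3 by 1.73 (0.0116, at least 1.69 over background). AT3G50560 fell by 0.58 (0.0198), IAGLU by 0.41 (0.0164), AT4G04630 by 0.45 (0.0439) and AT5G42760 by 1.18 (0.0327). The AT1G19530 call ended when 1 of WT array 2 and double mutant array 3 was left out (0.0556 to 0.0642) and with the 25S rRNA level as a covariate (0.253), the AT4G01870 call when 1 of WT arrays 2, 3 and 4, scrm-D arrays 2 and 3 and double mutant arrays 2, 3 and 4 was left out (0.0579 to 0.148), with trended robust moderation (0.0708), with arrays centred on their medians (0.0573) and with the 25S rRNA level as a covariate (0.176). The AT1G05340 call ended with the 25S rRNA level as a covariate (0.149) and the HIS1-3 call when double mutant array 3 was left out (0.0528) and with the 25S rRNA level as a covariate (0.145). AT3G50560 was lost when 1 of WT array 4 and double mutant array 3 was left out (0.0620 to 0.0833) and with the 25S rRNA level as a covariate (0.0674), and IAGLU when 1 of WT array 2 and double mutant array 4 was left out (0.0635 to 0.0636) and without replicate 4 of every genotype (0.116). AT4G04630 was lost when 1 of WT arrays 2, 3 and 4, spch array 2, scrm-D arrays 2, 3 and 4 and double mutant arrays 2 and 3 was left out (0.0514 to 0.146), with trended robust moderation (0.0605) and with the 25S rRNA level as a covariate (0.253). AT5G42760 was lost when 1 of WT arrays 2, 3 and 4 and double mutant arrays 2 and 4 was left out (0.0569 to 0.121) and with the 25S rRNA level as a covariate (0.0572), AT1G68620 when 1 of WT arrays 3 and 4 and double mutant arrays 2, 3 and 4 was left out (0.0670 to 0.121), with trended robust moderation (0.0533), with arrays centred on their medians (0.0558), with the 25S rRNA level as a covariate (0.0811) and without replicate 4 of every genotype (0.0818), AT5G01740 with the 25S rRNA level as a covariate (0.0563), and CML30 with the 25S rRNA level as a covariate (0.0620) and without replicate 4 of every genotype (0.0502).

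In the double mutant against scrm-D, AT1G66760 fell by 0.85 (adjusted p = 0.0473), IAGLU by 0.41 (0.0280), AT3G45730 by 0.80 (0.0149, at least 0.37 over background) and AT5G61820 by 0.78 (0.0204). Of the 186, 4 were called higher there (2.15%, against 7.45% of all probe sets), none of them among the 85 with 1 named gene. Whether named and unnamed members differ was not tested. The AT1G66760 call ended when 1 of WT arrays 2, 3 and 4, spch arrays 2 and 3, scrm-D arrays 3 and 4 and double mutant arrays 2, 3 and 4 was left out (0.0545 to 0.157), in a fit of those genotypes alone (0.129), with the 25S rRNA level as a covariate (0.0518) and without replicate 4 of every genotype (0.107). The IAGLU call ended when 1 of scrm-D arrays 2 and 4 and double mutant arrays 2 and 4 was left out (0.0539 to 0.0988), in a fit of those genotypes alone (0.0675), with trended robust moderation (0.0588) and without replicate 4 of every genotype (0.132), the AT3G45730 call when 1 of scrm-D array 4 and double mutant arrays 2 and 3 was left out (0.0597 to 0.0657) and the AT5G61820 call when 1 of scrm-D arrays 2 and 3 and double mutant arrays 2 and 4 was left out (0.0534 to 0.0936).

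The margin is a line through a continuous range. Just inside it lay AT5G59400, CML30 and AT3G56140, with margins of 1.26, 1.27 and 1.28. Just outside lay HYH (AT3G17609), a bZIP factor of light response related to HY5, AT3G27770 and AT5G15780, with 1.25, 1.24 and 1.24. HYH read 9.30, 9.10 and 8.89 in spch and 7.75, 7.93 and 7.64 in WT, without overlap.

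Other pathway genes outside the 186 moved in both directions between spch and WT. Of 146 genes on 11 lists 16 were measured, meaning that a probe set was paired with that gene alone in the annotation. Other list genes may be read by probe sets without a named gene, also by some of the 186. Of the 16, 3 were named among the 186, and of the other 13, limma called 3 higher and 4 lower (19.5% of all probe sets were called, 9.60% higher and 9.93% lower). The 3 rises were PPDK, ATG8E and HYH, which rose by 1.32 ± 0.18 (SE, adjusted p = 3.97e-04). In the hypoxia list LDH (AT4G17260), lactate dehydrogenase, fell by 0.67 (adjusted p = 0.00605, and 0.0595 without replicate 4 of every genotype), and HRA1 (AT3G10040), a regulator of the hypoxia response, had means under background in both. ARR16 (AT2G40670), a cytokinin response regulator, had a spch mean under background and fell by at least 0.51 (adjusted p = 0.00799), and ARR15 (AT1G74890) differed by −0.37 ± 0.16 (adjusted p = 0.127, 0.0416 with the replicate block). The auxin-responsive genes IAA29 (AT4G32280) and GH3.3 (AT2G23170) fell by 0.70 and 0.80, and the GH3.3 call ended when 1 of WT arrays 2 and 3, spch arrays 2, 3 and 4 and double mutant array 3 was left out (0.0583 to 0.163) and with the 25S rRNA level as a covariate (0.333). HHO2 (AT1G68670), the 1 measured nitrate response gene, differed by 0.20 ± 0.16, GI (AT1G22770) of the circadian clock by 0.16 ± 0.28, and WRKY53 (AT4G23810) by −0.33, none of them called. GH3.1 (AT2G14960), not called either, had a spch mean under background. Lists of jasmonate, abscisic acid and phosphate genes had no measured member.

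Markers of other cell types moved with the genotypes, and their part in the results above was not tested. None of the 16 measured markers, out of 46 on 7 lists, was among the 186. Marker levels were summed on the linear scale and the log2 of each sum is given, so the marker with the highest level weighs most. The summed level of 3 of 12 guard cell markers (FAMA, BLUS1 and GC1) was 6.52 to 9.94 on the spch arrays, 10.58 to 11.03 in WT, 12.93 to 13.20 in scrm-D and 7.95 to 9.34 in the double mutant. FAMA was above background on every array, but GC1 and BLUS1 were under it on spch replicate 4. The summed level of 3 of 5 markers of dividing cells, the Aurora kinases AUR1, AUR2 and AUR3, was 7.96 to 8.44 in spch against 9.47 to 9.68 in WT, 9.37 to 9.69 in scrm-D and 10.35 to 10.46 in the double mutant. That of 2 of 6 root hair markers was 6.02 to 6.15 in spch and 7.05 to 7.63 in WT, and EXPA18 was under background in spch. The 5 of 7 measured mesophyll markers summed to 15.49 to 15.63 in spch and 15.54 to 15.59 in WT, with overlap, but to at most 15.14 in scrm-D and 15.12 in the double mutant. Of these LHCB4.2 (AT3G08940), a light-harvesting protein, differed by −0.52 ± 0.19 between spch and WT (adjusted p = 0.0764, and 0.0101 with the replicate block). No epidermis marker on the list had a probe set with 1 named gene, and the 1 measured trichome marker, TRY (AT5G53200), differed by 0.08 ± 0.16 (adjusted p = 0.821).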

How the data were processed

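The authors deposited 1 normalized log2 value per probe set and array (3.13 to 14.63). RMA and limma are named, without versions, per the submitters' processing notes. Genome coordinates were used only for the order of genes along the chromosomes. Groups follow the titles and genotype fields, although the scrm-D samples carry a description that reads as the double mutant's. No 2 arrays were copies (at most 5 equal values).

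The 64 control probe sets were left out. The other 22746 entered 1 linear model (limma 3.58.1, R 4.3.3) of the 4 genotype means over all 12 arrays, with empirical Bayes moderation. Tests were two-sided, adjusted after Benjamini-Hochberg over all probe sets, and called at an adjusted p under 0.05. An adjusted p here is limma's. They reflect only the spread between these 12 samples. The fit was also tested on simulated data.

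Names come from the platform annotation, with symbols from TAIR10.1 (13436 of 13513 single-gene probe sets matched). Of the 10 names to be left out, SEN5 matched no probe set and may still be among the 186, as may other left-out genes on probe sets without a listed gene, and MCCB, AT3G15630 and ZAT10 lay under the margin. The genes named are the 30 largest margins, members called in a test, those nearest the margin and measured list genes. Others are said to be chosen after their values were seen, as are the background level, ICL, UGT73B4 and the role groups. The members and lists were chosen with earlier results of these data known.

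The replicate numbers were taken as pairing arrays where deviations from the genotype means correlated over 0.1 in every same-numbered pair: 0.138, 0.173 and 0.174 (spch with WT), 0.103, 0.299 and 0.214 (scrm-D with WT) and 0.260, 0.215 and 0.525 (double mutant with scrm-D), but 0.0826, 0.130 and 0.250 for the double mutant with WT. Most pairs of different numbers correlated negatively, but some did not. Double mutant replicate 2 with scrm-D replicate 3 gave 0.177, and 3 with 2 gave 0.140. Spch replicate 2 with WT replicate 3 gave 0.102, and double mutant replicate 2 with WT replicate 3 gave 0.0915. A limit of 0.1 alone thus does not separate same-numbered from other pairs. What a number marks is not stated, and the main fit did not pair the arrays. Alternatives left out each array, blocked on the number, fitted the compared genotypes alone, dropped low probe sets, changed the moderation, centred the arrays, and moved the margin.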

Additional observations from a re-analysis of the deposited data

Results flagged for a closer look

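The 25S rRNA control probe set, outside the measurement of genes, read up to 11.04 on a spch array, above the highest WT array (7.50). The phe control probe sets read up to 6.61 on double mutant replicate 4, above the highest WT value of 5.75, and all 6 of them were higher on that array than on the other 8 arrays of WT, spch and the double mutant. Groups of 3 arrays are too small for a test of single outlying arrays.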

How the results depend on the processing

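The number of members was 318 with a margin of 1 and 106 with a margin of 1.5, lay between 147 and 229 when 1 array was left out, and was 157 with medians and 162 when replicate 4 of every genotype was dropped (added after seeing the data). Of the 186, 144 and 141 remained in the last 2. The count of members called in scrm-D against WT was 19 to 38 when 1 array was left out (9.35% to 15.4% of all called). It was 19 with the 25S rRNA level as a covariate (9.97% of all called), likewise added later. That of the double mutant against WT was 31 to 50 when 1 array was left out (21.5% to 28.9% of all), and 27 with the covariate (16.4% of all). That of the double mutant against scrm-D was 8 to 25 when 1 array was left out (8.63% to 14.7% of all), 26 with the replicate block (17.4% of all) and 33 without replicate 4 of every genotype (13.9% of all). With the replicate block the other 2 counts were 47 and 57 (17.9% and 31.7% of all), and 8 of the 13 list genes were called between spch and WT (23.8% of all). Of the 40 calls of named members, 15 held in all 19 alternatives, 25 ended in at least 1 and none changed sign. Of 29 list genes and markers between spch and WT, 20 stayed on their side of the threshold in all 19, 6 lost a call in at least 1 and 3 gained one. The gains were ARR15 with the replicate block (0.0416), GC1 with the block (0.0463), without spch replicate 2 or 3 (0.0450 and 0.0460) and without replicate 4 of every genotype (0.0312), and LHCB4.2 with the block (0.0101), in a fit of those genotypes alone (0.0237) and without replicate 4 of scrm-D or of the double mutant (0.0443 and 0.0371). The marker calls that ended were those of FAMA with the rRNA covariate (0.0825), BLUS1 when 1 of WT arrays 2 and 4 was left out (0.0525 to 0.0810), in a fit of those genotypes alone (0.0652) and with the 25S rRNA level as a covariate (0.256), EXPA7 when 1 of WT arrays 2, 3 and 4, spch arrays 2, 3 and 4 and double mutant array 3 was left out (0.0566 to 0.148), with the 25S rRNA level as a covariate (0.418) and without replicate 4 of every genotype (0.166) and AUR3 when 1 of WT arrays 3 and 4 and spch arrays 2 and 4 was left out (0.0708 to 0.0825), with the 25S rRNA level as a covariate (0.0816) and without replicate 4 of every genotype (0.0971). The deposited values carry no detection calls, so the background level rests on bacterial controls alone.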
